A study of Mus musculus with 6 samples.

Results

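Astrocytes take up the transmitters that neurons release and the potassium ions that neuronal firing leaves behind. The 8 genes described here, of 32285 in the deposited matrices, carry out these functions and were matched by their symbols. Slc1a2 (GLT-1) and Slc1a3 (GLAST) encode the glutamate transporters of astrocytes, and Glul encodes glutamine synthetase, which turns glutamate into glutamine. Slc6a11 (GAT-3) and Slc6a13 (GAT-2) encode GABA transporters. Gja1 (connexin 43) and Gjb6 (connexin 30) encode the gap junction proteins that couple astrocytes to each other. Kcnj10 (Kir4.1) encodes the inwardly rectifying potassium channel of astrocytes. In the astrocyte network, potassium and glutamate taken up at one place can spread through gap junctions to neighbouring cells. Slc6a13, Gja1 and Gjb6 are also known in the meninges, the membranes around the brain, where Slc6a13 marks fibroblasts.

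The data came from single-nucleus RNA-sequencing (snRNA-seq) of C57BL/6 S-56 mouse brains without cerebellum and olfactory bulbs, 3 from mice given lysophosphatidic acid (LPA) and 3 from mice given vehicle, which was BSA in PBS. Both groups received an injection into the right lateral ventricle at postnatal day 7 and flunixin after surgery, and brains were collected at postnatal day 15. LPA is a blood-borne signalling lipid, and its injection serves as a model of post-hemorrhagic hydrocephalus. The concentration of LPA for these brains is not given in the sources used here. Nuclei without the neuronal nuclear protein NeuN were sorted to collect non-neuronal nuclei, and each brain gave 1 library. Many neurons remained, with 14621 of the 57443 nuclei kept in clusters named neurons. Unique molecular identifiers (UMIs) were counted on a pre-mRNA reference, so that unspliced transcripts of the nucleus counted as well. The libraries held 48852970 to 65688644 UMIs, and 7579 to 11745 nuclei per library passed the filters. Between 387 and 435 barcodes per library also occurred in another library, of which 103 to 147 were kept in both. By Xist and Y-linked counts, 1 LPA mouse and 2 vehicle mice were male, so sex was not balanced between groups.

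Nuclei were clustered without the 8 genes, the marker genes or the genes that the study names, so that none of the 8 genes or the markers took part in setting the clusters. Of the 10358 astrocyte-like nuclei, 2101 were Gfap-rich, 2824 had Agt and Itih3 and are called Agt astrocytes, and 5433 had Lhx2 and Mfge8 and are called other astrocytes. All 20 markers of the astrocyte list were detected in each kind. Marker lists that hold Gfap and Agt named the kinds, so the levels of these genes describe the kinds and do not check the names. Gfap, the filament protein raised in reactive astrocytes, was at 891, 789 and 971 CPM in the LPA libraries and 589.8, 497 and 537 CPM in the vehicle libraries in Gfap-rich astrocytes, against 38.9, 53.3 and 54.9 CPM in the LPA libraries and 53.0, 49.5 and 29.4 CPM in the vehicle libraries in Agt astrocytes. Agt, which encodes angiotensinogen, was at 221, 215 and 232 CPM in the LPA libraries and 304, 253 and 210.0 CPM in the vehicle libraries in Agt astrocytes. CPM are UMIs per 1000000 UMIs, summed over the nuclei of a library and scaled with TMM, a factor that corrects for composition. Markers of other cell types were also present in each kind and are given beside the results they move with.

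In the GENCODE M21 annotation of GRCm38, the genes lie at chr2:102658659-102790784 (plus strand), chr15:8634124-8710764 (minus strand), chr6:114131241-114249952 (plus strand), chr6:121300227-121337733 (plus strand), chr1:153899944-153909723 (plus strand), chr10:56377330-56402513 (plus strand), chr14:57123303-57133611 (minus strand) and chr1:172341210-172374085 (plus strand), in the order Slc1a2, Slc1a3, Slc6a11, Slc6a13, Glul, Gja1, Gjb6 and Kcnj10. None overlaps another counted gene on its own strand. The promoters of Slc6a13, which was called in other astrocytes, are not shown. Those shown are of Gja1, Gjb6, Slc1a3 and Slc6a11, all called in at least 1 kind of astrocyte and described in detail with their values. Each runs from 250 bases before to 50 bases after the start given by RefSeq (GRCm38.p6), read 5′ to 3′ on the strand of the gene. They lie at chr10:56377050-56377349 (plus strand), chr14:57133562-57133861 (minus strand), chr15:8710758-8711057 (minus strand) and chr6:114130991-114131290 (plus strand). Capitals mark the motifs TATAAA (the TATA box), GGGCGG (the GC box bound by Sp1), TGANTCA (the AP-1 site) and TTCNNNGAA (the STAT site), each searched on both strands.
Gja1: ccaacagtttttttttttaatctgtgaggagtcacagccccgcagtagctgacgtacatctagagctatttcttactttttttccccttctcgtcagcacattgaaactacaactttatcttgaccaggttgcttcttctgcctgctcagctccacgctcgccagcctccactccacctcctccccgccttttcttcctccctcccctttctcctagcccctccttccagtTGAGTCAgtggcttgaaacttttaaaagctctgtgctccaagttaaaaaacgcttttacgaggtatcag
Gjb6: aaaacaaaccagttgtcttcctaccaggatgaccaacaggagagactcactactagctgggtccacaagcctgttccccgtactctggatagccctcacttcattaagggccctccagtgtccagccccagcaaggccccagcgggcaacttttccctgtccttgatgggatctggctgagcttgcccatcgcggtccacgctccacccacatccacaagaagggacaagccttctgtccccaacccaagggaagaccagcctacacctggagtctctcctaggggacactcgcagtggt
Slc1a3: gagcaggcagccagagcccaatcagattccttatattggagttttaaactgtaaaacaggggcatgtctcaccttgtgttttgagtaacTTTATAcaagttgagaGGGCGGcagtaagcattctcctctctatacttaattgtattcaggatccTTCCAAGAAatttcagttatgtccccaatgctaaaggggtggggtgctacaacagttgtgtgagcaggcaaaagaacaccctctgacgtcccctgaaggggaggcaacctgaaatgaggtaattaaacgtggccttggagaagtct
Slc6a11: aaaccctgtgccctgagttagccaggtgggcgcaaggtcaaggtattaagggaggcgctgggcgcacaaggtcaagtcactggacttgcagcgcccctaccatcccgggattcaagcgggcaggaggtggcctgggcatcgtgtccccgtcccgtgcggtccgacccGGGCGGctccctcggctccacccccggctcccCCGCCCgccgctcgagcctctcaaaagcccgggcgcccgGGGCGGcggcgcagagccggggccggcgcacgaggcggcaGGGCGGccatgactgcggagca
The Gja1 window held 1 AP-1 site and the Gjb6 window held none of the 4. The Slc1a3 window held 1 TATA box, 1 GC box and 1 STAT site, and the Slc6a11 window held 4 GC boxes. Of 32851 mouse promoters of this length, 13.6% held a TATA box, 35.7% a GC box, 7.81% an AP-1 site and 8.30% a STAT site. The GC content was 47.7% for Gja1, 57.3% for Gjb6, 45.3% for Slc1a3 and 72.3% for Slc6a11. The matches describe the letters only.

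Across 12 cell populations, the 8 genes did not share 1 pattern. The levels are given within each gene, as the mean and range over all 6 libraries, and are a description without a test. Slc1a2 was highest in other astrocytes at 11847 CPM (range 11121 to 12398), followed by Gfap-rich astrocytes at 5865 CPM (range 4589.9 to 6750.3) and Agt astrocytes at 4812 CPM (range 4423 to 5331), whose ranges overlapped. Every other population was below these, with endothelial cells at 1022 CPM (range 662 to 1351) and oligodendrocytes at 147 CPM (range 124 to 177). Slc1a3 had the same order of kinds, with 2893 CPM (range 2741 to 3012) in other, 2011 CPM (range 1310.0 to 2571) in Gfap-rich and 1655 CPM (range 1472 to 1813) in Agt astrocytes, and the latter pair overlapped. Glul was at 814 CPM (range 767 to 867) in other astrocytes, 484 CPM (range 366 to 579) in Gfap-rich astrocytes and 432 CPM (range 369.9 to 528) in Agt astrocytes. Here too the ranges of Gfap-rich and Agt astrocytes overlapped.

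**Figure D1:**
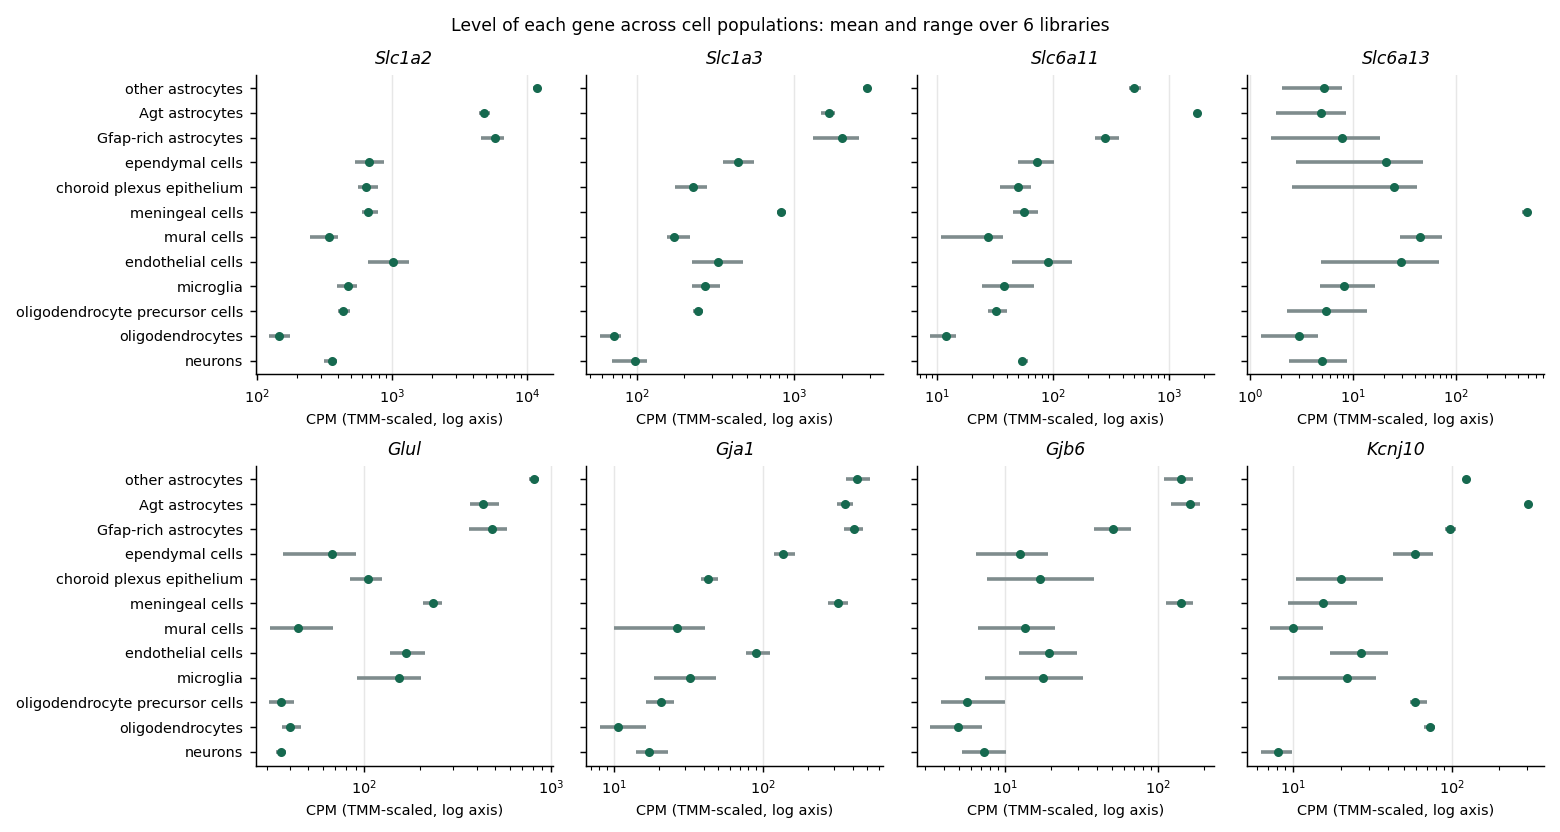
Level of each gene in 12 cell populations, in CPM on a log axis, with dots for the mean and bars for the range over 6 libraries. Slc1a2, Slc1a3 and Glul were highest in other astrocytes, Slc6a11 and Kcnj10 in Agt astrocytes, and Slc6a13 in meningeal cells, while the ranges of Gja1 and Gjb6 overlapped between astrocytes and meningeal cells.

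Slc6a11 and Kcnj10 were highest in Agt astrocytes. Slc6a11 was at 1737 CPM (range 1663 to 1862) there, at 502 CPM (range 453 to 569.9) in other astrocytes and at 279 CPM (range 228 to 372) in Gfap-rich astrocytes, with no overlap between the kinds. Kcnj10 was at 301 CPM (range 290.0 to 316) in Agt, 123 CPM (range 118 to 129.5) in other and 97.3 CPM (range 90.3 to 106) in Gfap-rich astrocytes, again without overlap. Kcnj10 also stood above the astrocyte markers in cells of the oligodendrocyte lineage. In oligodendrocytes it was at 73.6 CPM (range 67.2 to 78.4), which was 44.4% of its level in all astrocytes. The median of the 20 astrocyte markers was 2.38% there and none of the 20 reached the share of Kcnj10. In oligodendrocyte precursor cells Kcnj10 was at 59.1 CPM (range 54.8 to 69.6), and 1 of the 20 markers reached its share. In ependymal cells, which line the ventricles, it was at 58.8 CPM (range 43.0 to 76.0). The ranges of these 3 populations overlapped.

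The connexin genes were about as high in meningeal cells as in astrocytes. Gja1 was at 429 CPM (range 363 to 522) in other, 407 CPM (range 352 to 471) in Gfap-rich and 353 CPM (range 314 to 401) in Agt astrocytes and at 319.8 CPM (range 276 to 369.8) in meningeal cells, and each range overlapped the next. Gjb6 was at 163 CPM (range 123 to 189.5) in Agt astrocytes, 142 CPM (range 114 to 169.6) in meningeal cells and 142 CPM (range 109.6 to 169.5) in other astrocytes, which overlapped, and lower in Gfap-rich astrocytes at 50.7 CPM (range 38.2 to 66.5). In the clusters led by Col4a6 and by Ptgds, Gjb6 was at 222 CPM (range 190.2 to 247) and 221 CPM (range 194.5 to 246). These ranges lay above those of every kind of astrocyte. In the cluster led by Slc47a1 it was at 92.9 CPM (range 57.9 to 133). Gja1 was highest in the Slc47a1 cluster, at 393 CPM (range 326 to 467). It was at 271 CPM (range 225 to 330) in the Col4a6 and 196 CPM (range 158 to 218) in the Ptgds cluster. Slc6a13 was a meningeal gene in these data, at 488 CPM (range 435 to 534) in meningeal cells. In all other populations the mean was at most that of mural cells, 44.8 CPM (range 28.7 to 72.3), and in the 3 kinds of astrocyte it lay between 4.93 and 7.89 CPM. Slc1a3 was also detected in the meninges, with 1525 CPM (range 1362 to 1619) in the meningeal cluster led by Col4a6 and Aox3 and 1665 CPM (range 1421 to 1842) in that led by Ptgds and Fam180a, against 331 CPM (range 275 to 365) in the cluster led by Slc47a1. Glul was at 23.6% of its astrocyte level in microglia, where the 20 astrocyte markers had a median of 6.53% and 1 of the 20 reached that share.

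The genes whose levels followed each member most closely over the 12 populations were found by Pearson correlation of mean log2(CPM + 1), over 14561 genes with at least 10 CPM in a population. The populations come from the same 6 libraries, so the values describe likeness and carry no test. For Slc1a2 they were Aldoc (r = 0.990), Gm13872 (r = 0.990), Gpam (r = 0.988), of which Gm13872 lies on the opposite strand within Slc1a2. For Slc1a3 they were Pxmp2 (r = 0.973), F3 (r = 0.971), Mid1ip1 (r = 0.959). For Glul they were Hif3a (r = 0.936), Stk17b (r = 0.935), Cd38 (r = 0.930). For Slc6a11 they were Lgr6 (r = 0.984), Gm17660 (r = 0.965), Fgfr3 (r = 0.965). For Slc6a13 they were Col13a1 (r = 0.962), Slc6a20b (r = 0.956), Arfgap3 (r = 0.955). For Gja1 they were Fmo1 (r = 0.981), Slc7a11 (r = 0.961), Gli2 (r = 0.959), and for Gjb6 Fzd2 (r = 0.961), Egfros (r = 0.951), Aldh1a1 (r = 0.950). For Kcnj10 they were Hepacam (r = 0.942), Asrgl1 (r = 0.930), Fam228b (r = 0.924). Hepacam encodes an adhesion protein of astrocyte endfeet.

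The makeup of the astrocytes differed between the groups and bears on any value over all astrocytes. Gfap-rich astrocytes were 26.6% ± 0.986 (SD, n = 3) in LPA and 13.2% ± 0.954 (SD, n = 3) in vehicle libraries, as a share of the astrocyte-like nuclei, with no overlap between groups (two-sided exact permutation p = 0.100, the smallest that 3 against 3 libraries allow). Agt astrocytes were 24.6% ± 4.57 (SD, n = 3) in LPA and 30.2% ± 1.495 (SD, n = 3) in vehicle libraries (exact p = 0.100), and other astrocytes 48.8% ± 3.68 (SD, n = 3) in LPA and 56.6% ± 0.658 (SD, n = 3) in vehicle libraries (exact p = 0.100). No share can pass 0.05 in this design. The nuclei also differed in depth. The median UMI count of Gfap-rich nuclei was 2986 to 3253 in LPA and 1861 to 2234 in vehicle libraries, and that of other astrocytes 3337 to 3470.0 and 2676 to 3159. That of Agt astrocytes was 3271 to 3434 and 2544 to 3007. In meningeal nuclei it was 3295 to 3714.5 and 2579 to 3037. The groups were also apart in depth in ependymal cells, microglia and oligodendrocytes, and overlapped in neurons. Mitochondrial UMIs made up 0.0348% to 0.0755% of UMIs in LPA and 0.124% to 0.190% in vehicle libraries in Gfap-rich astrocytes, without overlap. They were 0.0287% to 0.0554% and 0.0844% to 0.132% in Agt astrocytes, and 0.0303% to 0.0642% and 0.0998% to 0.138% in other astrocytes. Their share was also lower in LPA libraries without overlap in meningeal, ependymal, microglial, oligodendrocyte and neuronal nuclei. The part of depth and of these UMIs in the results was not tested.

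**Figure D2:**
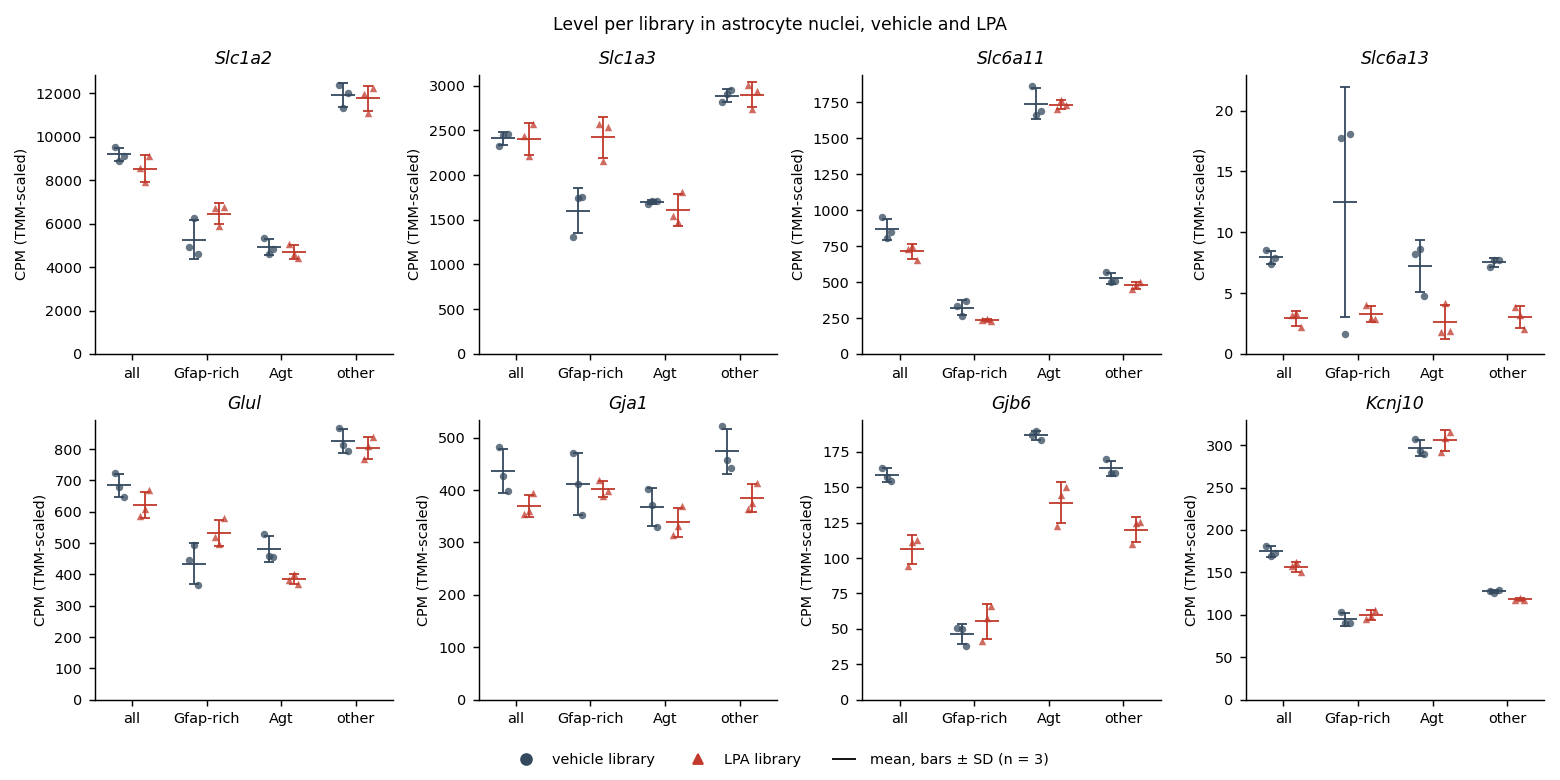
CPM of each gene per library in all astrocytes and in the 3 kinds, with circles for vehicle, triangles for LPA and bars for mean ± SD (n = 3). In Gfap-rich astrocytes the LPA libraries sat above all vehicle libraries for Slc1a3, and Gjb6 was lower in every LPA library in Agt and other astrocytes.

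Whether LPA injection changed the glutamate uptake genes was asked within each kind of astrocyte, with edgeR on summed UMIs. To be called, a gene needed an adjusted p below 0.05 together with a log2 fold-change whose size was 0.25 or more. In Gfap-rich astrocytes, Slc1a3 rose. It was at 2571, 2157 and 2532 CPM in the LPA libraries and 1310.0, 1743 and 1751 CPM in the vehicle libraries (log2 fold-change 0.59 ± 0.114 SE, n = 3 per group, adjusted p = 9.57e-04). All 3 LPA libraries were above all 3 vehicle libraries. This was the only member called higher in Gfap-rich astrocytes, of 7 tested, where 5.89% of 10739 genes were called higher. Slc6a11 was the only one called lower, where 3.19% were called lower. Slc1a3 was called in all 16 alternatives, with values from 0.46 to 0.67. With each nucleus thinned to 1500 UMIs, Slc1a3 was detected in 86.7% to 89.6% of nuclei in LPA and 72.0% to 80.6% in vehicle libraries, and without thinning in 93.7% to 97.0% and 82.9% to 86.5%. Thinning left out 47 of 1442 LPA and 83 of 659 vehicle nuclei. In oligodendrocytes, which should lack the gene and had median UMI counts of 4256 to 5909.5, the thinned share was 7.36% to 10.1% of nuclei in LPA and 8.38% to 11.1% in vehicle libraries.

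Slc1a2 and Glul had values above 0 in Gfap-rich astrocytes that did not pass the test. Slc1a2 was at 6744, 5914 and 6750.3 CPM in the LPA libraries and 4905, 6285 and 4589.9 CPM in the vehicle libraries (log2 fold-change 0.30 ± 0.106 SE, n = 3 per group, adjusted p = 0.0812), and the groups overlapped. It was called at 0.45 (adjusted p = 0.00175) without vehicle 2 and at 0.36 (adjusted p = 0.00476) without a low-count filter, with adjusted p from 0.00175 to 0.790 over its alternatives. Glul was at 521, 498 and 579 CPM in the LPA libraries and 445, 493 and 366 CPM in the vehicle libraries (log2 fold-change 0.29 ± 0.117 SE, n = 3 per group, adjusted p = 0.136), with the groups apart. Its adjusted p ranged from 0.0388 to 0.482 over its alternatives, and it was called at 0.35 (adjusted p = 0.0388) without a low-count filter. In the other kinds the glutamate genes were not called by edgeR. Slc1a3 was at 1539, 1472 and 1813 CPM in the LPA libraries and 1676, 1715 and 1715 CPM in the vehicle libraries in Agt astrocytes, with a log2 fold-change of -0.08 ± 0.0747 (SE, adjusted p = 0.768). In other astrocytes it was at 3012, 2741 and 2939 CPM in the LPA libraries and 2814, 2907 and 2946 CPM in the vehicle libraries, with 0.0041 ± 0.0574 (SE, adjusted p = 0.986). Slc1a2 had -0.07 ± 0.0613 (SE, adjusted p = 0.763) in Agt and -0.02 ± 0.0465 (SE, adjusted p = 0.900) in other astrocytes. Glul was at 382, 401 and 369.9 CPM in the LPA libraries and 528, 459 and 454 CPM in the vehicle libraries in Agt astrocytes, where the groups did not overlap (log2 fold-change -0.32 ± 0.0854 SE, n = 3 per group, adjusted p = 0.121). It was called there at -0.31 (adjusted p = 0.0419) with DESeq2, and its adjusted p ranged from 0.0419 to 0.374 over its alternatives. In other astrocytes Glul had -0.04 ± 0.0686 (SE, adjusted p = 0.870). Over all astrocytes, Slc1a2 had -0.11 ± 0.0499 (SE, adjusted p = 0.236), Slc1a3 -0.003 ± 0.0596 (SE, adjusted p = 0.985) and Glul -0.14 ± 0.0679 (SE, adjusted p = 0.258).

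Other genes moved within Gfap-rich astrocytes beside Slc1a3. Of the 9 genes of the Gfap-rich list, 4 rose and 1 fell, and the list summed to 2647 to 3051 CPM in LPA and 2049 to 2608 CPM in vehicle libraries. Of the 20 astrocyte markers, 7 rose and 0 fell, with a sum of 14073 to 14959 CPM in LPA and 11023 to 12217 CPM in vehicle libraries. Of the 12 oligodendrocyte markers, 7 fell, with a sum of 1297 to 1587 CPM in LPA and 2145 to 2593 CPM in vehicle libraries and none of the 12 at 0. Nuclei with 2 or more UMIs of ependymal markers were 132 of 443, 156 of 559 and 125 of 440 in the LPA libraries. In the vehicle libraries they were 30 of 134, 41 of 274 and 48 of 251. With these nuclei left out, Slc1a3 and Slc6a11 were still called. The part of the marker lists in the results was not tested. Scaling by total UMIs in place of TMM moved the median of all genes in Gfap-rich astrocytes from -0.02 to -0.12 on the log2 scale, and the calls from 632 higher and 343 lower to 461 higher and 572 lower. With that scaling Slc1a3 was still called, at 0.49 (adjusted p = 0.00248), and its adjusted p ranged from 4.10e-08 to 0.0111 over its alternatives.

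Of the GABA transporters, Slc6a11 fell in Gfap-rich astrocytes and was not called in the Agt astrocytes that have most of it. In Gfap-rich astrocytes it was at 233, 242 and 228 CPM in the LPA libraries and 335, 263 and 372 CPM in the vehicle libraries (log2 fold-change -0.45 ± 0.116 SE, n = 3 per group, adjusted p = 0.0128), with no overlap. Left out 1 library at a time, it lost the call at -0.44 (adjusted p = 0.0521) without LPA 3 and -0.32 (adjusted p = 0.160) without vehicle 3, and its adjusted p ranged from 0.00159 to 0.160 over its alternatives. Of the 7 genes of the Agt list, 5 were tested there and 3 fell, with a sum of 233 to 284 CPM in LPA and 438 to 589.8 CPM in vehicle libraries. Agt itself was at 53.2, 52.4 and 21.7 CPM in the LPA libraries and 151, 85.5 and 92.5 CPM in the vehicle libraries. Their part in the fall of Slc6a11 was not tested. In Agt astrocytes, Slc6a11 was at 1703, 1765 and 1734 CPM in the LPA libraries and 1862, 1663 and 1693 CPM in the vehicle libraries, with a log2 fold-change of -0.0043 ± 0.0677 (SE, adjusted p = 0.990). In other astrocytes it was at 453, 481 and 498 CPM in the LPA libraries and 569.9, 500.0 and 509 CPM in the vehicle libraries, with -0.14 ± 0.0729 (SE, adjusted p = 0.393).

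Over all astrocytes, Slc6a11 was at 733, 753 and 655 CPM in the LPA libraries and 949.5, 806 and 846 CPM in the vehicle libraries and was called lower (log2 fold-change -0.28 ± 0.0732 SE, n = 3 per group, adjusted p = 0.0224). Slc6a13 and Gjb6 were also called lower, which makes 3 of the 8 genes, where 3% of 14616 genes were called lower and 4.75% higher. The same number of nuclei of each kind was also drawn from every library, in 1 random draw of 1068 nuclei per library. This changed the mix of kinds and the number of nuclei together, and their parts were not told apart. In this draw Slc6a11 had -0.08 (adjusted p = 0.615) and was no longer called. It was also not called with sex as a covariate, at -0.24 (adjusted p = 0.0515), or at -0.30 (adjusted p = 0.0528) without LPA 1, -0.22 (adjusted p = 0.120) without LPA 3, -0.21 (adjusted p = 0.0638) without vehicle 1 and -0.29 (adjusted p = 0.0523) without vehicle 3. Its adjusted p ranged from 4.16e-04 to 0.615 over its alternatives.

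Slc6a13 was low in astrocytes and lower in LPA libraries, as were the meningeal markers in the same nuclei. Over all astrocytes it was at 3.24, 3.34 and 2.19 CPM in the LPA libraries and 8.50, 7.36 and 7.91 CPM in the vehicle libraries, from 56 and 114 UMIs in all (log2 fold-change -1.40 ± 0.235 SE, n = 3 per group, adjusted p = 8.22e-04), with no overlap. In other astrocytes it was at 3.84, 3.21 and 2.03 CPM in the LPA libraries and 7.12, 7.73 and 7.76 CPM in the vehicle libraries (log2 fold-change -1.31 ± 0.313 SE, n = 3 per group, adjusted p = 0.0224). There the call was lost at -1.36 (adjusted p = 0.0911) without LPA 2, -1.10 (adjusted p = 0.147) without LPA 3, -1.30 (adjusted p = 0.0971) without vehicle 2 and -1.30 (adjusted p = 0.0785) without vehicle 3, and its adjusted p ranged from 0.00597 to 0.147 over its alternatives. In Gfap-rich and Agt astrocytes it was too low to be tested, with 15 UMIs in LPA and 16 in vehicle libraries in the former and 13 and 31 in the latter. Of the 14 meningeal markers, 10 were tested in all astrocytes, 5 fell and none rose, and the list summed to 102 to 121 CPM in LPA and 152 to 179 CPM in vehicle libraries. As a share of its level in meningeal cells, Slc6a13 was at 0.626% in LPA and 1.56% in vehicle astrocytes, and 12 and 10 of the 14 markers were at or above these shares.

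In all 11 populations other than meningeal cells the mean of Slc6a13 was lower in LPA than in vehicle libraries. In vehicle endothelial and ependymal cells its share of the meningeal level was 8.67% and 5.92%, and 3 and 4 of the 14 markers were at or above these shares. It was called in oligodendrocytes, at 1.28, 1.88 and 2.26 CPM in the LPA libraries and 3.66, 4.54 and 4.11 CPM in the vehicle libraries (log2 fold-change -1.17 ± 0.259 SE, n = 3 per group, adjusted p = 0.0124), with no overlap. It was lost at -1.19 (adjusted p = 0.0638) without LPA 2 and -1.08 (adjusted p = 0.0632) without vehicle 2, and with Scrublet doublet calls left out, at -0.71 (adjusted p = 0.116). Its adjusted p ranged from 7.63e-04 to 0.116 over its alternatives. This was 1 of 8 genes, where 1.77% of 14422 genes were called lower. The meningeal list in oligodendrocytes summed to 24.0 to 36.9 CPM in LPA and 49.6 to 63.4 CPM in vehicle libraries. In neurons Slc6a13 had -1.28 ± 0.218 (SE, adjusted p = 0.0751), with the list at 48.5 to 74.0 CPM in LPA and 90.6 to 118 CPM in vehicle libraries. It was called there at -1.28 (adjusted p = 0.00141) with DESeq2, -1.29 (adjusted p = 2.86e-04) without a low-count filter, -1.38 (adjusted p = 0.0422) with no mitochondrial filter and -1.43 (adjusted p = 0.0299) at Leiden resolution 2. In ependymal cells it had -1.28 ± 0.441 (SE, adjusted p = 0.118) and was called at -1.25 (adjusted p = 0.0134) without a low-count filter and -1.89 (adjusted p = 0.00448) with sex as a covariate. In endothelial cells it was called at -1.65 (adjusted p = 2.76e-07) without a low-count filter. Over the alternatives the adjusted p ranged from 2.86e-04 to 0.341 in neurons, from 0.00448 to 0.393 in ependymal cells and from 2.76e-07 to 1.000 in endothelial cells. Meningeal nuclei were 5.44% ± 0.720 (SD, n = 3) in LPA and 11.8% ± 0.859 (SD, n = 3) in vehicle libraries (exact permutation p = 0.100). Their part in the level of Slc6a13 in other cells was not tested. Within meningeal cells, Slc6a13 was at 447, 520.1 and 435 CPM in the LPA libraries and 534, 496 and 498 CPM in the vehicle libraries, with a log2 fold-change of -0.12 ± 0.0844 (SE, adjusted p = 0.715).

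**Figure D3:**
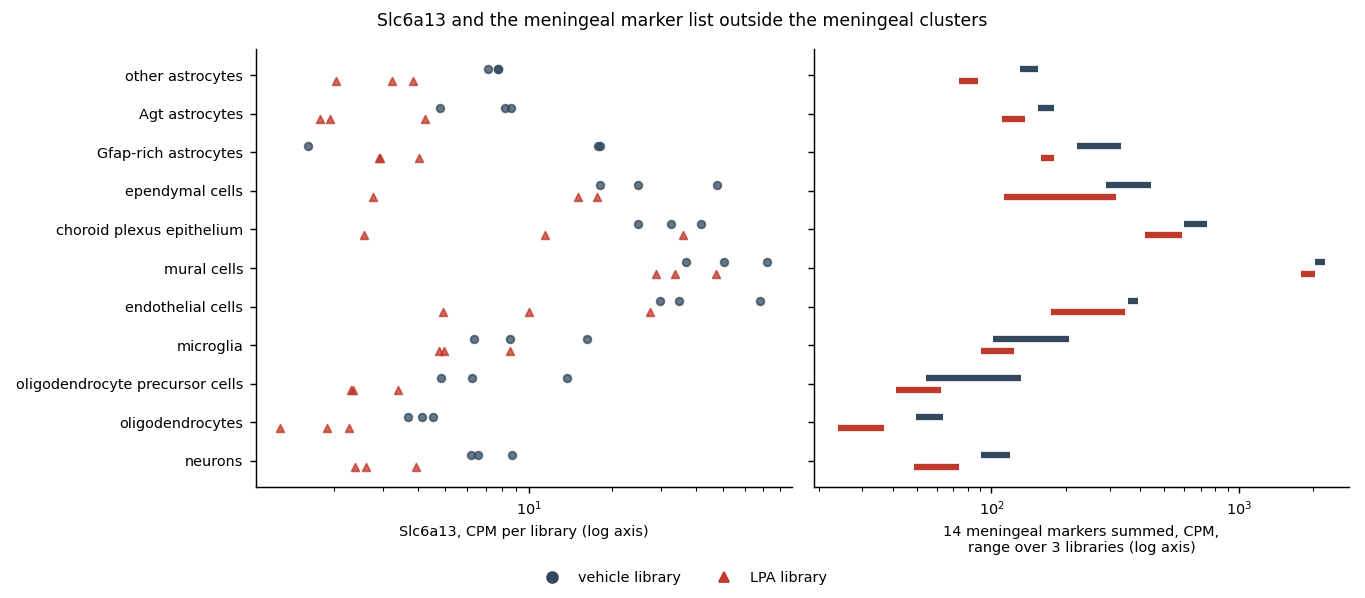
Left, CPM of Slc6a13 per library (circles vehicle, triangles LPA) in 11 populations outside the meninges. Right, range of the summed CPM of 14 meningeal markers over the 3 libraries of each group, both on log axes. In oligodendrocytes and in other astrocytes both measures were lower in every LPA library.

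Both gap junction genes fell in other astrocytes. Gjb6 went from 169.5, 159.9 and 160.2 CPM in the vehicle libraries to 109.6, 125 and 125 CPM in the LPA libraries (log2 fold-change -0.44 ± 0.0790 SE, n = 3 per group, adjusted p = 0.00334). All 3 LPA libraries were below all 3 vehicle libraries. It was called in all 15 alternatives, with values from -0.48 to -0.38. Gja1 was at 363, 375 and 414 CPM in the LPA libraries and 522, 457 and 442 CPM in the vehicle libraries (log2 fold-change -0.30 ± 0.0777 SE, n = 3 per group, adjusted p = 0.0392), again without overlap. Its call was lost at -0.26 (adjusted p = 0.167) without LPA 1, -0.28 (adjusted p = 0.191) without LPA 2, -0.36 (adjusted p = 0.0665) without LPA 3, -0.23 (adjusted p = 0.0874) without vehicle 1 and -0.33 (adjusted p = 0.0598) without vehicle 2, and with no mitochondrial filter, at -0.28 (adjusted p = 0.117). Its adjusted p ranged from 0.00502 to 0.191 over its alternatives. With Slc6a13, these were 3 of 8 genes called lower in other astrocytes, where 1.21% of 12840 genes were called lower. None of the 8 was called higher, where 1.39% were. Scaling by total UMIs gave 125 higher and 195 lower calls in place of 179 and 155.

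In Agt astrocytes, Gjb6 was at 123, 144 and 150.3 CPM in the LPA libraries and 187, 189.5 and 183 CPM in the vehicle libraries (log2 fold-change -0.43 ± 0.0957 SE, n = 3 per group, adjusted p = 0.0417), and the groups did not overlap. It was the 1 of 7 tested genes that was called, where 0.221% of 11321 genes were called lower and 0.106% higher. The call lay near the threshold and was lost at -0.34 (adjusted p = 0.191) without LPA 1, -0.46 (adjusted p = 0.172) without LPA 2, -0.48 (adjusted p = 0.0919) without LPA 3, -0.42 (adjusted p = 0.199) without vehicle 2 and -0.44 (adjusted p = 0.149) without vehicle 3, and, with nuclei of shared barcodes left out, at -0.42 (adjusted p = 0.0529). Its adjusted p ranged from 0.0108 to 0.199 over its alternatives. Gja1 was at 314, 332 and 369 CPM in the LPA libraries and 401, 372 and 329.7 CPM in the vehicle libraries in Agt astrocytes, with overlap and a log2 fold-change of -0.12 ± 0.0908 (SE, adjusted p = 0.700). In Gfap-rich astrocytes neither gene passed the test. Gjb6 was at 41.7, 57.7 and 66.5 CPM in the LPA libraries and 50.4, 49.98 and 38.2 CPM in the vehicle libraries there, from 253 and 67 UMIs, with 0.26 ± 0.221 (SE, adjusted p = 0.561). Gja1 was at 419, 389 and 397 CPM in the LPA libraries and 471, 411 and 352 CPM in the vehicle libraries, with -0.02 ± 0.111 (SE, adjusted p = 0.938).

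Over all astrocytes, Gjb6 was at 94.5, 111 and 113 CPM in the LPA libraries and 164, 157 and 155 CPM in the vehicle libraries (log2 fold-change -0.57 ± 0.0731 SE, n = 3 per group, adjusted p = 5.79e-05) and was called in all 16 alternatives. With the same mix of kinds, the value for Gjb6 in all astrocytes was -0.40 (adjusted p = 0.00540), smaller and still called, and its adjusted p ranged from 1.33e-12 to 0.00540 over its alternatives. Gja1 was at 355, 359 and 394 CPM in the LPA libraries and 481, 428 and 399 CPM in the vehicle libraries and was not called (log2 fold-change -0.24 ± 0.0733 SE, n = 3 per group, adjusted p = 0.0533). It was called at -0.30 (adjusted p = 0.0293) without vehicle 3, and at -0.26 (adjusted p = 0.0355) with total UMI scaling and -0.26 (adjusted p = 0.0404) with no mitochondrial filter, and its adjusted p ranged from 0.0118 to 0.197 over its alternatives. In nuclei thinned to 1500 UMIs, Gjb6 was detected in 13.8% to 14.99% of nuclei in LPA and 19.1% to 22.2% in vehicle libraries among other astrocytes, and without thinning in 29.4% to 32.7% and 34.5% to 40.2%. Gja1 was detected in 39.2% to 40.8% of nuclei in LPA and 46.7% to 52.0% in vehicle libraries, and without thinning in 64.0% to 65.4% and 64.4% to 73.1%, where the groups overlapped. Thinning left out 36 of 2630 and 83 of 2803 nuclei. In oligodendrocytes the thinned share was 0.340% to 1.08% of nuclei in LPA and 0.715% to 1.06% in vehicle libraries for Gjb6 and 1.08% to 2.05% of nuclei in LPA and 1.30% to 2.58% in vehicle libraries for Gja1.

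**Figure D4:**
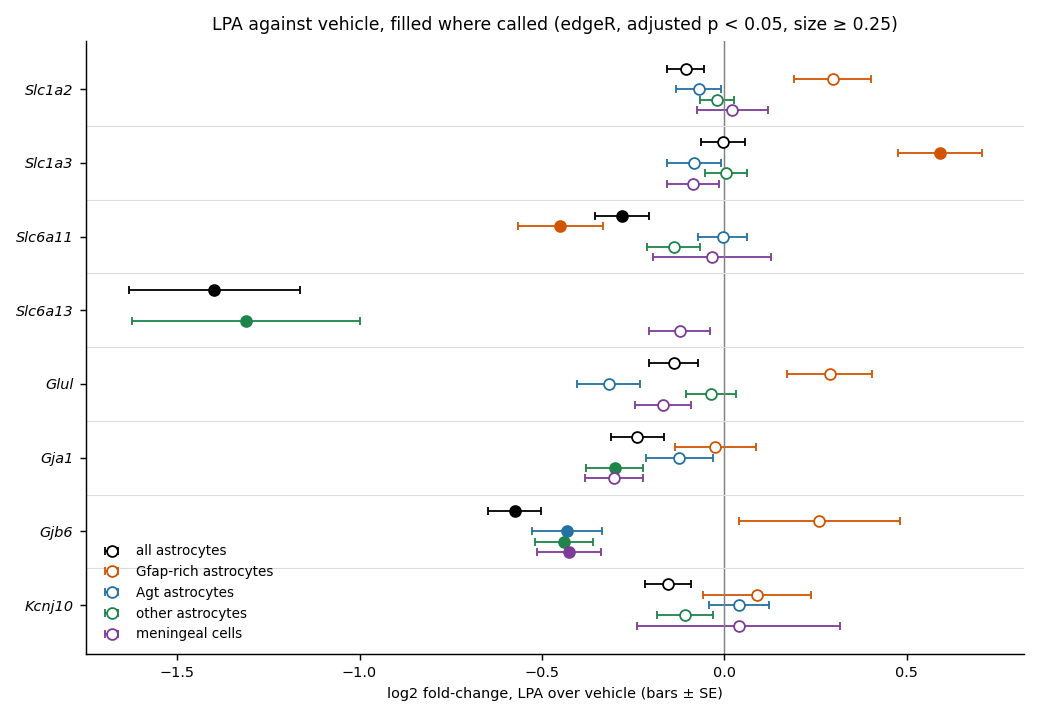
Log2 fold-change of each gene, LPA over vehicle, with bars for ± SE, in all astrocytes, the 3 kinds and meningeal cells. Filled points passed the test, and Slc1a3 in Gfap-rich astrocytes, at 0.59, was the only filled point above 0.

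Kcnj10 was not called in any population. It was at 292, 308 and 316 CPM in the LPA libraries and 307, 293 and 290.0 CPM in the vehicle libraries in Agt astrocytes, where it is highest (log2 fold-change 0.04 ± 0.0824 SE, n = 3 per group, adjusted p = 0.913), and the groups overlapped. In other astrocytes it was at 118, 119.8 and 118 CPM in the LPA libraries and 128, 125 and 129.5 CPM in the vehicle libraries, with the groups apart and a log2 fold-change of -0.11 ± 0.0765 (SE, adjusted p = 0.565). In Gfap-rich astrocytes it had 0.09 ± 0.148 (SE, adjusted p = 0.799), and over all astrocytes -0.15 ± 0.0631 (SE, adjusted p = 0.158). In oligodendrocytes it was at 67.2, 75.7 and 70.1 CPM in the LPA libraries and 78.4, 72.1 and 77.8 CPM in the vehicle libraries, with overlap (log2 fold-change -0.10 ± 0.0668 SE, n = 3 per group, adjusted p = 0.503). In oligodendrocyte precursor cells it had -0.03 ± 0.139 (SE, adjusted p = 0.975), and in ependymal cells -0.36 ± 0.198 (SE, adjusted p = 0.398).

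Whether the effect of LPA differed between kinds was tested itself, with an interaction term and the library as a block. The difference for Slc1a3 was 0.61 ± 0.0757 (SE, adjusted p = 3.85e-09) on the log2 scale between Gfap-rich and other astrocytes and 0.69 ± 0.0788 (SE, adjusted p = 1.97e-10) between Gfap-rich and Agt astrocytes. It was called in all 12 alternatives of each contrast, with an adjusted p of at most 1.22e-06 and 7.01e-07 and at least 7.37e-19 and 8.12e-23. For Glul the difference was 0.60 ± 0.102 (SE, adjusted p = 1.37e-05) from Agt astrocytes, called in all 12 alternatives, and 0.34 ± 0.0935 (SE, adjusted p = 0.0136) from other astrocytes, called in 8 of 12. In all, 5 of 8 genes were called between Gfap-rich and other astrocytes, where 5.2% of 13014 genes were, and 5 of 8 between Gfap-rich and Agt astrocytes, where 4.63% were. Slc1a2, Glul and Gjb6 were among them in both contrasts, with Gja1 in the former and Slc6a11 in the latter. Between Agt and other astrocytes none of the 8 was called, where 0.0154% of genes were. In edgeR, 3 of the 8 had an unadjusted p under 0.05 in that contrast.

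Meningeal cells were 5147 nuclei in 4 clusters. A further 855 nuclei formed a cluster led by Slc6a13 that held both meningeal and astrocyte markers, with a median of 6399 UMIs. It stayed unnamed and out of the comparisons, and was 0.649% to 0.903% of nuclei in LPA and 1.94% to 2.27% in vehicle libraries. In meningeal cells, Gjb6 was the 1 member called of 8, where 0.313% of 13404 genes were called lower. It was at 114, 133 and 116 CPM in the LPA libraries and 169.6, 154 and 166 CPM in the vehicle libraries (log2 fold-change -0.43 ± 0.0871 SE, n = 3 per group, adjusted p = 0.0486), with no overlap. The call was at the threshold and was lost at -0.38 (adjusted p = 0.186) without LPA 1, -0.40 (adjusted p = 0.138) without LPA 3, -0.40 (adjusted p = 0.151) without vehicle 1, -0.46 (adjusted p = 0.0916) without vehicle 2 and -0.41 (adjusted p = 0.209) without vehicle 3, and with DESeq2, at -0.42 (adjusted p = 0.0670). It was also lost with sex as a covariate, at -0.42 (adjusted p = 0.103), without Scrublet calls, at -0.31 (adjusted p = 0.114), and at Leiden resolution 2, at -0.34 (adjusted p = 0.0654). Over the alternatives its adjusted p ranged from 0.00104 to 0.209. In the cluster led by Slc47a1 and Gm6260, Gjb6 was at 63.9, 76.7 and 57.9 CPM in the LPA libraries and 133, 112 and 113 CPM in the vehicle libraries (log2 fold-change -0.85 ± 0.135 SE, n = 3 per group, adjusted p = 0.0138), where 0.145% of genes were called lower. Leaving out libraries lost this call at -0.81 (adjusted p = 0.0628) without LPA 1, -0.76 (adjusted p = 0.101) without vehicle 1 and -0.87 (adjusted p = 0.07998) without vehicle 3, with adjusted p from 0.00631 to 0.101 over its alternatives. For single meningeal clusters these were only the 6 libraries left out in turn, so Scrublet calls and resolution 2 were not tried there. In the cluster led by Col4a6 and Aox3, Gjb6 was at 190.2, 218 and 222 CPM in the LPA libraries and 231, 227 and 247 CPM in the vehicle libraries, with -0.16 ± 0.114 (SE, adjusted p = 0.671). In that led by Ptgds and Fam180a it had -0.14 ± 0.161 (SE, adjusted p = 0.941). Of all genes, 2.02% and 0.0916% were called in either direction in these 2 clusters. The difference between clusters was not tested.

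Gja1 was at 301, 283 and 276 CPM in the LPA libraries and 363, 369.8 and 326 CPM in the vehicle libraries in meningeal cells, with no overlap, and was not called (log2 fold-change -0.30 ± 0.0790 SE, n = 3 per group, adjusted p = 0.132). It was called in 3 of 15 alternatives, at -0.32 (adjusted p = 0.0265) without a low-count filter, -0.34 (adjusted p = 0.0425) with Scrublet calls left out and -0.36 (adjusted p = 0.0374) at Leiden resolution 2, and its adjusted p ranged from 0.0265 to 0.415. The Slc47a1 cluster had -0.35 ± 0.0931 (SE, adjusted p = 0.176) and the Col4a6 cluster -0.33 ± 0.113 (SE, adjusted p = 0.159). The meningeal marker list gave no call in meningeal cells, and its sum was 7258 to 7960.2 CPM in LPA and 7248 to 7300.4 CPM in vehicle libraries. Slc1a3 had -0.08 ± 0.0710 (SE, adjusted p = 0.778), Glul -0.17 ± 0.0781 (SE, adjusted p = 0.504) and Slc1a2 0.02 ± 0.0974 (SE, adjusted p = 0.977). Slc6a13 was at 6.61, 4.41 and 6.72 CPM in the LPA libraries and 9.46, 28.9 and 18.4 CPM in the vehicle libraries in the Slc47a1 cluster, with -1.74 ± 0.432 (SE, adjusted p = 0.136). In the Col4a6 cluster, which has much of it, it had -0.02 ± 0.0984 (SE, adjusted p = 0.982).

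**Figure D5:**
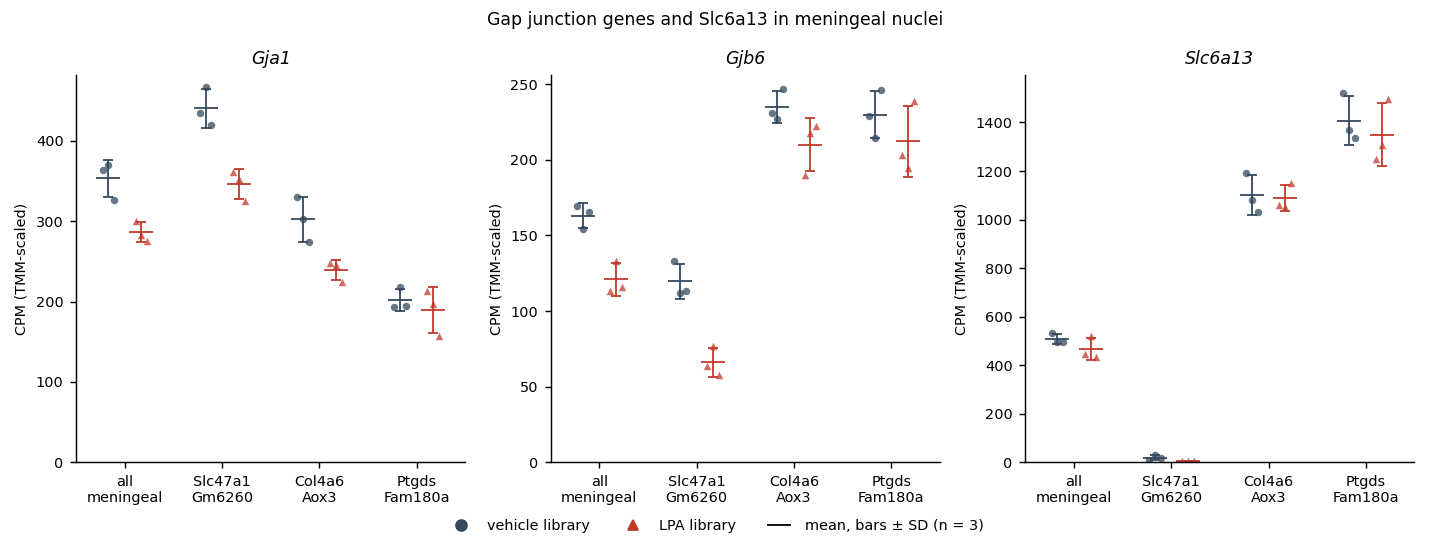
CPM of Gja1, Gjb6 and Slc6a13 per library in all meningeal cells and in the 3 largest clusters (circles vehicle, triangles LPA, bars mean ± SD, n = 3). Gjb6 in the Slc47a1 cluster was at 66.2 CPM on average in LPA and 119.6 CPM in vehicle libraries.

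In other cell types 2 more genes were called. Slc1a3 rose in ependymal cells, where it was at 466, 550.0 and 505 CPM in the LPA libraries and 350.1, 397 and 355 CPM in the vehicle libraries (log2 fold-change 0.47 ± 0.115 SE, n = 3 per group, adjusted p = 0.0240), with no overlap. This was 1 of 8 genes, where 2.12% of 10798 genes were called higher. It was lost at 0.40 (adjusted p = 0.110) without LPA 2, 0.47 (adjusted p = 0.108) without LPA 3, 0.44 (adjusted p = 0.0857) without vehicle 1 and 0.45 (adjusted p = 0.0791) without vehicle 3. It was also lost with sex as a covariate, at 0.41 (adjusted p = 0.0592), and at Leiden resolution 2, at 0.47 (adjusted p = 0.0820). Its adjusted p ranged from 0.00170 to 0.110 over its alternatives. Its level there was 18.2% of that in astrocytes, and 5 of 20 astrocyte markers reached that share. Of these 20 markers, 3 also rose in ependymal cells, with a sum of 2470.0 to 3239 CPM in LPA and 2367 to 2829 CPM in vehicle libraries, and of the Gfap-rich list 3 of 6 tested rose. Their part in the result was not tested. Glul had -0.47 ± 0.214 (SE, adjusted p = 0.268) in ependymal cells and was called lower at -0.72 (adjusted p = 0.0494) with sex as a covariate.

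Glul fell in microglia, the immune cells of the brain. It was at 126, 146 and 91.6 CPM in the LPA libraries and 190.0, 201 and 170.2 CPM in the vehicle libraries (log2 fold-change -0.65 ± 0.177 SE, n = 3 per group, adjusted p = 0.0128), with no overlap. This was 1 of 7 tested genes, where 3.88% of 9299 genes were called lower. It was lost at -0.48 (adjusted p = 0.0893) without LPA 3 and -0.56 (adjusted p = 0.276) without vehicle 2, and with DESeq2, at -0.62 (adjusted p = 0.219), and its adjusted p ranged from 0.00496 to 0.276 over its alternatives. The 20 astrocyte markers summed to 1257 to 1547 CPM in LPA and 1203 to 1519.9 CPM in vehicle libraries in the same nuclei and none was called. The 10 microglial markers summed to 7341 to 8195 CPM in LPA and 10534 to 12369.6 CPM in vehicle libraries, with 9 called lower, and 4 of 4 tested macrophage markers rose. The microglia were 1 cluster, with 393, 545 and 425 nuclei in the LPA and 112, 321 and 97 in the vehicle libraries. At Leiden resolution 2 they fell into a cluster led by Selplg and Siglech, with 227, 313 and 185 nuclei in LPA and 111, 319 and 96 in vehicle libraries, and one led by Gpnmb and Atp6v0d2, with 166, 229 and 239 and 1, 2 and 1. The part of these in the fall of Glul was not tested. Leaving out Scrublet doublet calls also meant clustering the nuclei again. This gave 387, 541 and 420 microglia in the LPA and 114, 317 and 111 in the vehicle libraries. In this setting 3 more of the 8 genes were called lower in microglia. They were Slc1a2, at -1.27 (adjusted p = 0.00561) beside -0.07 ± 0.137 (SE, adjusted p = 0.858), Slc1a3, at -0.91 (adjusted p = 0.00358) beside -0.37 ± 0.137 (SE, adjusted p = 0.0900), and Slc6a11, at -0.88 (adjusted p = 0.0498) beside -0.61 ± 0.312 (SE, adjusted p = 0.278). The part of the new clusters in these calls was not tested. Slc1a3 was also called at -0.45 (adjusted p = 0.0466) without vehicle 1. The adjusted p ranged from 0.00561 to 0.998 for Slc1a2, from 0.00358 to 0.690 for Slc1a3 and from 0.0498 to 0.976 for Slc6a11. Gjb6 was not called in oligodendrocytes, where its log2 fold-change was -0.68 ± 0.224 (SE, adjusted p = 0.0987), except at -0.83 (adjusted p = 0.0350) without vehicle 1 and at -0.68 (adjusted p = 0.0226) without a low-count filter, and its adjusted p ranged from 0.0226 to 0.334 over its alternatives. None of the 8 genes was called in choroid plexus epithelium, mural cells, endothelial cells, oligodendrocyte precursor cells or neurons by the edgeR test, and Slc6a13 was called in endothelial cells and neurons in the alternative settings given above. At an unadjusted p under 0.05 there were 3, 0, 2, 0 and 2 genes in that order. The share of all tested genes called in either direction was 0.0496% in choroid plexus epithelium, 0.207% in mural cells, 0.158% in oligodendrocyte precursor cells, 0.0882% in neurons and 0% in endothelial cells, where 708 of 11294 genes had an unadjusted p under 0.05 in edgeR and DESeq2 called 7.

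The other genes of these pathways were counted from 4 lists of 41 genes. Only the main result is given for them, and how their calls held in the alternatives is not reported here. In Gfap-rich astrocytes, 6 of 32 tested genes rose and 2 fell, with a median log2 fold-change of 0.12 beside -0.02 over all genes. Of all genes there, 5.89% were called higher and 3.19% lower. The potassium and water list had 3 of 14 genes that rose, all of the Kcnk family of background potassium channels. Kcnk1 was at 109, 107 and 111 CPM in the LPA libraries and 62.2, 43.5 and 48.3 CPM in the vehicle libraries (log2 fold-change 1.13 ± 0.174 SE, n = 3 per group, adjusted p = 7.81e-05). Kcnk10 was at 116, 108 and 113 CPM in the LPA libraries and 35.6, 62.9 and 62.3 CPM in the vehicle libraries (log2 fold-change 1.00 ± 0.176 SE, n = 3 per group, adjusted p = 3.45e-04), and Kcnk2 had 0.53 ± 0.126 (SE, adjusted p = 0.00623). The water channel gene Aqp4 had -0.04 ± 0.133 (SE, adjusted p = 0.902).

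Of the glutamate and glutamine list, Slc7a11, which exports glutamate in exchange for cystine, rose in Gfap-rich astrocytes with 0.47 ± 0.141 (SE, adjusted p = 0.0367). Slc38a3, a glutamine transporter, rose with 0.46 ± 0.143 (SE, adjusted p = 0.0419). The other glutamine transporter Slc38a1 had 0.28 ± 0.136 (SE, adjusted p = 0.238) there, but rose in other astrocytes with 0.61 ± 0.150 (SE, adjusted p = 0.0261) and over all astrocytes with 1.29 ± 0.117 (SE, adjusted p = 1.68e-06). The last value holds all kinds, whose mix differed between the groups, and it is not given with the same mix. Of the GABA and glycine list, the taurine transporter Slc6a6 fell in Gfap-rich astrocytes with -0.93 ± 0.182 (SE, adjusted p = 0.00105). Of the gap junction list, Tjp1 (ZO-1), a scaffold protein at junctions, rose there and was at 1021, 889 and 1079 CPM in the LPA libraries and 566, 559 and 521 CPM in the vehicle libraries (log2 fold-change 0.86 ± 0.110 SE, n = 3 per group, adjusted p = 6.51e-06). The connexin gene Gjc3, known from oligodendrocytes, fell with -0.9977 ± 0.175 (SE, adjusted p = 3.47e-04), in nuclei whose oligodendrocyte markers fell as given above.

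In other astrocytes, 1 of 36 tested genes rose and 2 fell, with a median of -0.09 beside -0.01 over all genes, of which 1.39% were called higher and 1.21% lower. Atp1b2, the sodium pump subunit of astrocytes, fell with -0.41 ± 0.0932 (SE, adjusted p = 0.0169), and Kcnk2 fell with -0.29 ± 0.0794 (SE, adjusted p = 0.0499), the direction opposite to that in Gfap-rich astrocytes. The Kcnk2 call was at the threshold, and a test of its difference between these kinds is not given. In Agt astrocytes none of 31 tested genes was called by edgeR. The lowest adjusted p among them belonged to Atp1b2, with -0.36 ± 0.0990 (SE, adjusted p = 0.132), and Slc38a2, with -0.60 ± 0.182 (SE, adjusted p = 0.173). Over all astrocytes, 4 of 37 rose, among them Kcnk10 with 0.81 ± 0.0997 (SE, adjusted p = 4.29e-05), and 3 fell, among them Atp1b2 with -0.48 ± 0.0935 (SE, adjusted p = 0.00321), where 4.75% and 3% of all genes did. These values over all astrocytes are not given with the same mix of kinds either. In meningeal cells none of 36 was called.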

How the data were processed

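Nuclei from 6 brains, 3 per group, were sequenced as 10x libraries, with 10000 nuclei targeted in each. The authors aligned reads with Cell Ranger 4.0.0 to a pre-mRNA mm10 reference and deposited UMI counts per gene and nucleus, which were used as deposited. Replicates were separate mice, and groups were taken from the labels.

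Nuclei were kept if they had 300 genes or more, no more than 1% of UMIs from mitochondria, and UMIs below the upper quartile of their library plus 1.5 times its interquartile range. Clusters were made with scanpy 1.11.5 from 3000 variable genes, 40 components, 30 neighbours and Leiden resolution 1, without batch correction. The 39 clusters were named from marker lists. Doublets called by Scrublet were kept in the main result and left out in an alternative. The limits that kept 8 mixed or low-count clusters (7314 nuclei) unnamed were chosen with the clusters in view. The 8 genes and the lists were chosen with earlier results of these data known.

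UMI counts were summed per library and population, with at least 10 nuclei each, and tested with the quasi-likelihood test of edgeR 4.0.16 in R 4.3.3 (filterByExpr, TMM, Benjamini-Hochberg adjustment over all genes of a population). Levels are CPM. The difference between kinds of astrocyte was tested as an interaction with the library as a block. For shares of nuclei an exact permutation test (two-sided) was used, which cannot give a p below 0.1 here. Each SE is the size of the log2 fold-change over the square root of the F statistic of edgeR. It therefore holds the spread between libraries as well as the counting of UMIs. Shares of nuclei carry counting error only within each library. The rule for named genes took the 8. From the pathway lists it took the 3 genes with the lowest adjusted p in each direction in each astrocyte population. It also took the 3 genes most like each of the 8 across populations, and Gfap and Agt. Gfap and Agt were on the lists that named the kinds, so they describe the kinds and are no independent check. Other pathway genes are named as examples chosen after their values were seen, and some pathway genes are not reported here. Alternatives were DESeq2 1.42.0, total UMI scaling, no low-count filter, each library left out, the replicate number as a block, sex as a covariate, no mitochondrial filter, Scrublet calls left out, resolution 2 and the same mix of astrocyte kinds. With no mitochondrial filter and with Scrublet calls left out, nuclei were clustered and named again, so the populations also changed in membership. Added after seeing the data were nuclei of shared barcodes left out, nuclei with ependymal markers left out, and single meningeal clusters. Chi-square values per degree of freedom between replicates of a group were 2.45 to 4.92, so no library was a copy of another in its group. Libraries of different groups were not compared in this way. Scripts were tested on simulated data.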

Additional observations from a re-analysis of the deposited data

Results flagged for a closer look

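By the interaction test given above, 6 of the 8 genes were called between Gfap-rich astrocytes and at least 1 other kind. Of all 13014 genes, 5.2% were called between Gfap-rich and other astrocytes and 4.63% between Gfap-rich and Agt astrocytes. The share called in either contrast is not given. Only Slc1a3 in both contrasts and Glul against Agt astrocytes were called in all 12 alternatives. For Slc1a3 the difference was 0.61 ± 0.0757 (SE, adjusted p = 3.85e-09) between Gfap-rich and other astrocytes and 0.69 ± 0.0788 (SE, adjusted p = 1.97e-10) between Gfap-rich and Agt astrocytes, on the log2 scale, and no alternative lost either call. Slc1a2 differed by 0.34 ± 0.0795 (SE, adjusted p = 0.00214) between Gfap-rich and other astrocytes, and the call was lost at 0.23 (adjusted p = 0.130) without vehicle 3, and at 0.21 (adjusted p = 0.143) with Scrublet calls left out and 0.11 (adjusted p = 0.451) at Leiden resolution 2. Without vehicle 2 it was 0.53 (adjusted p = 4.94e-10). Between Gfap-rich and Agt astrocytes Slc1a2 differed by 0.38 ± 0.0811 (SE, adjusted p = 6.86e-04), and by 0.60 (adjusted p = 7.80e-12) without vehicle 2, and the call was lost at 0.14 (adjusted p = 0.278) at Leiden resolution 2. Glul differed by 0.34 ± 0.0935 (SE, adjusted p = 0.0136) between Gfap-rich and other astrocytes, lost at 0.33 (adjusted p = 0.0620) without LPA 1 and 0.24 (adjusted p = 0.255) without vehicle 3 and at 0.25 (adjusted p = 0.107) with total UMI scaling and 0.24 (adjusted p = 0.119) at Leiden resolution 2, and by 0.60 ± 0.102 (SE, adjusted p = 1.37e-05) between Gfap-rich and Agt astrocytes, lost in no alternative. Over the alternatives, the adjusted p for the difference from other astrocytes ranged from 4.94e-10 to 0.451 for Slc1a2 and from 0.00121 to 0.255 for Glul, and for that from Agt astrocytes from 7.80e-12 to 0.278 and from 6.56e-08 to 0.00119.

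Slc6a11 differed by -0.43 ± 0.104 (SE, adjusted p = 0.00397) between Gfap-rich and Agt astrocytes, lost at -0.26 (adjusted p = 0.284) without vehicle 3. From other astrocytes Slc6a11 differed by -0.28 ± 0.106 (SE, adjusted p = 0.123), which was called at -0.41 (adjusted p = 0.0207) without vehicle 2 and at -0.37 (adjusted p = 0.0169) with total UMI scaling, -0.42 (adjusted p = 0.00846) with no mitochondrial filter and -0.45 (adjusted p = 0.00478) with Scrublet calls left out. Gjb6 differed by 0.73 ± 0.203 (SE, adjusted p = 0.0160) between Gfap-rich and other astrocytes, lost at 0.63 (adjusted p = 0.102) without LPA 3 and 0.61 (adjusted p = 0.165) without vehicle 3 and at 0.66 (adjusted p = 0.0570) with no mitochondrial filter, 0.57 (adjusted p = 0.115) with Scrublet calls left out and 0.39 (adjusted p = 0.388) at Leiden resolution 2. Between Gfap-rich and Agt astrocytes Gjb6 differed by 0.70 ± 0.209 (SE, adjusted p = 0.0311), lost at 0.69 (adjusted p = 0.0796) without LPA 2, 0.62 (adjusted p = 0.130) without LPA 3, 0.80 (adjusted p = 0.0673) without vehicle 2 and 0.61 (adjusted p = 0.192) without vehicle 3 and at 0.61 (adjusted p = 0.0788) with total UMI scaling, 0.61 (adjusted p = 0.107) with no mitochondrial filter, 0.59 (adjusted p = 0.109) with Scrublet calls left out and 0.38 (adjusted p = 0.441) at Leiden resolution 2. Gja1 differed by 0.31 ± 0.0954 (SE, adjusted p = 0.0397) between Gfap-rich and other astrocytes, lost at 0.24 (adjusted p = 0.239) without LPA 1, 0.31 (adjusted p = 0.0961) without LPA 2, 0.33 (adjusted p = 0.0540) without vehicle 1, 0.34 (adjusted p = 0.0660) without vehicle 2 and 0.25 (adjusted p = 0.269) without vehicle 3 and at 0.22 (adjusted p = 0.216) with total UMI scaling, 0.24 (adjusted p = 0.262) with no mitochondrial filter, 0.26 (adjusted p = 0.127) with Scrublet calls left out, 0.16 (adjusted p = 0.469) at Leiden resolution 2 and 0.30 (adjusted p = 0.0509) with shared barcodes left out. Over the alternatives, the adjusted p ranged from 9.12e-05 to 0.284 for Slc6a11, from 0.0163 to 0.469 for Gja1, and for Gjb6 from 0.00895 to 0.388 and from 0.0231 to 0.441 in the same order as above. The nuclei of Gfap-rich astrocytes differed more in depth between the groups than those of the other kinds, and the part of this in the differences was not tested.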

How the results depend on the processing

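Of 1865 recomputed values of the 8 genes over populations and contrasts, 1753 kept their side of the threshold, 84 lost a call, 28 gained one and 0 called values changed sign. The total includes values with no call in the main result, which had none to lose. It therefore does not measure how often calls held. Among values with no call, 136 had the opposite sign. The number of genes called moved more. DESeq2 gave 727 in place of 1133 genes in all astrocytes and 575 in place of 975 in Gfap-rich astrocytes. The same mix of kinds gave 398 in all astrocytes, in fewer nuclei. Without a low-count filter, Agt astrocytes had 110 in place of 37, other astrocytes 506 in place of 334 and meningeal cells 342 in place of 78. Meningeal cells had 316 without the mitochondrial filter, 191 without Scrublet doublet calls and 179 at resolution 2, and the clusters led by Slc47a1, Col4a6 and Ptgds had 30, 199 and 6 on their own. Leaving out 1 library gave 14 to 67 in Agt astrocytes, 134 to 447 in other astrocytes and 18 to 68 in meningeal cells. Counts moved by over 1.5 times were 15 without LPA 2, 17 without LPA 3, 67 without vehicle 1, 18 without vehicle 2, 14 without vehicle 3 in Agt astrocytes, 134 without LPA 2, 136 without LPA 3, 207 without vehicle 2, 190 without vehicle 3 in other astrocytes and 41 without LPA 1, 26 without vehicle 1, 50 without vehicle 2, 18 without vehicle 3 in meningeal cells. Elsewhere, ependymal cells had 414 calls, 194 with DESeq2, 678 without the low-count filter, 155 without LPA 3, 265 without vehicle 1, 264 without vehicle 3. Microglia had 843, 424 with DESeq2, 540 without LPA 3, 453 without vehicle 2. Oligodendrocytes had 759, 373 at resolution 2, 401 without LPA 2, 486 without vehicle 3. The Slc47a1 cluster had 7 without vehicle 1, 3 without vehicle 3, 49 without LPA 3. The difference of effect between Agt and other astrocytes had 2 calls, and 4 with total UMI scaling, 8 without the low-count filter, 6 without the mitochondrial filter, 7 at resolution 2 and 0 without Scrublet calls, where edgeR gave 665 genes at an unadjusted p under 0.05. Leaving out 1 library gave 0 to 8, with 0 without LPA 2 and without vehicle 1, where 658 and 690 genes had an unadjusted p under 0.05, 1 without LPA 1 and without vehicle 3, and 8 without vehicle 2. The share of Agt astrocytes among all nuclei was 0.309 points higher in LPA libraries, and -0.17 without LPA 1, within a range of -0.166 to 1.05 over the libraries left out. The cause of these shifts was not tested.

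Replicate numbers did not pair the libraries. The correlations of deviations from the group means over genes were 0.0985, 0.166 and -0.121 for same-numbered libraries, and LPA 2 and vehicle 1 correlated best with their own number while the other 4 libraries did not. With the replicate block, calls went to 20 in Agt astrocytes, 205 in other astrocytes and 51 in meningeal cells. It ended the calls of Gjb6 in Agt astrocytes, at -0.43 (adjusted p = 0.130), Slc6a13 and Gja1 in other astrocytes, at -1.32 (adjusted p = 0.0600) and -0.30 (adjusted p = 0.102), and Gjb6 in meningeal cells, at -0.43 (adjusted p = 0.128). Gene counts, like Gjb6 in Gfap-rich astrocytes with 67 vehicle UMIs, limit what could be detected. In simulated data the test called 9% of genes changed by 0.5 (log2) in Gfap-rich astrocytes and 59% of those changed by 1. It also called 5 unchanged genes there. In all astrocytes it called 40% and 84%, and 11 unchanged genes. Each rate is over 100 changed genes. They were drawn at random from all tested genes, so the rates do not hold for a gene at a given level.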
